A study of Mus musculus with 2 samples.

Results

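The transcription factors that direct myeloid differentiation are described here in bone marrow LSK cells (Lineage-Sca-1+c-Kit+, a sorted fraction of stem cells and early multipotent progenitors). The members were fixed by name as Cebpa, Cebpb, Cebpd, Cebpe, Cebpg, Spi1, Irf8, Gfi1 and Id2. Every non-control probe whose gene name or transcript accession belonged to one of them was taken, which gave 9 probes for 9 genes, 1 each, out of 55680 probes and 34786 genes or transcripts. The cells were from C57BL/6 mice of the genotype Tet2KD/KD; Ezh2delta/delta, labelled as MDS (myelodysplastic syndrome), and both arrays carried this genotype, with no wild-type array analysed here. The mice were secondary transplant recipients, sampled at 10 weeks after transplantation and labelled as 7 weeks DAC or 7 weeks PBS. These labels do not say whether 7 weeks was the length of treatment or a time since it. DAC is decitabine, a nucleoside that traps DNA methyltransferases and so lowers DNA methylation. With 1 array in each group there is no replicate check on any difference, and no p-value is given. The sources used here do not give the number of mice behind an array, the driver of the Ezh2 deletion, the dose or the share of host cells.

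C/EBP proteins are basic leucine zipper factors that bind DNA as dimers and can pair with one another. C/EBPα is needed to form granulocyte and monocyte progenitors, and PU.1, the product of Spi1, is an ETS factor that sets myeloid against other fates according to its dose. Irf8 favours monocytes and dendritic cells over granulocytes, Gfi1 is a zinc finger repressor that favours granulocytes, and Id2 holds E proteins away from DNA. In LSK cells these genes are transcribed at low to moderate levels before commitment, which is often called myeloid priming.

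In the DAC array, 8 of the 9 probes read higher than in the PBS array, and Cebpe read lower. Among genes measured on both arrays, 7 of the 8 members and 51.4% of all genes read higher. Cebpa was 2.39-fold higher. Cebpd was 2.97-fold higher, but only 1.37-fold with normexp background correction. Spi1 and Cebpb lay just under 2-fold, at 1.98-fold and 1.91-fold. Id2 was detected with DAC alone, as were 9.43% of all genes or transcripts. Its lower bound ran from 1.10-fold to 2.01-fold under the alternatives. These directions are given relative to the 75th percentile of each array, and that of Cebpg turned under 5 of 11 alternative settings.

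The regulatory sequence before the start of a gene is where DNA methylation is usually read, so the 250 bases before the start are shown for the neighbouring genes Cebpa and Cebpg, of which only the former passed 2-fold, and for Cebpb and Id2. They come from RefSeq on GRCm38.p6, run 5′ to 3′ on the gene's strand, and have each CpG in capitals. The windows lie at chr7:35119043-35119292 (plus strand, Cebpa), chr7:35056567-35056816 (minus strand, Cebpg), chr2:167688665-167688914 (plus strand, Cebpb) and chr12:25096093-25096342 (minus strand, Id2).
Cebpa: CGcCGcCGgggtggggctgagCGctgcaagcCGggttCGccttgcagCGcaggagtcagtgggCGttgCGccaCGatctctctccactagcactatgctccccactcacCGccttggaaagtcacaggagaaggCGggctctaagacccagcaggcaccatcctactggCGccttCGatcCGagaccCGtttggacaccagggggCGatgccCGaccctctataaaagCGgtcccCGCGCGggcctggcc
Cebpg: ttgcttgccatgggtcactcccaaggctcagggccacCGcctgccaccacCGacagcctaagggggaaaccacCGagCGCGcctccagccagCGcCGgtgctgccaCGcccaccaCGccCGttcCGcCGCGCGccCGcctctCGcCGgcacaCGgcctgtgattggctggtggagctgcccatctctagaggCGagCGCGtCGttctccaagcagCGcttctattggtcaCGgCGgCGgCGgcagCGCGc
Cebpb: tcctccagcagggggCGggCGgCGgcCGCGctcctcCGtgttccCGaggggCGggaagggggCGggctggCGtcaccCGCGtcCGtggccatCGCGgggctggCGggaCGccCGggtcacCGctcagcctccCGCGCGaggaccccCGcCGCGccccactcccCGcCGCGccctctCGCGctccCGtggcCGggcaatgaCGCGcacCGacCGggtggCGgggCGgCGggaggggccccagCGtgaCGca
Id2: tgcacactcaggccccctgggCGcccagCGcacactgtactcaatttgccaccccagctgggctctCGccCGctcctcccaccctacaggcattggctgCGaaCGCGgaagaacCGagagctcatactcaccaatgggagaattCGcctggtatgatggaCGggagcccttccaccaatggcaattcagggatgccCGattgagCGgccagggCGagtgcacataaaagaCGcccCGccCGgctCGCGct

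All of these windows were rich in CpG. Cebpb held 41 CpGs, Cebpg 29, Cebpa 22 and Id2 18, against a median of 6 over 32851 RefSeq promoters of the same length. As many CpGs as in Cebpb were found in 1.09% of all promoters, and as many as in Id2 in 21.7%. The ratio of observed to expected CpG was 0.99 for Cebpb, 0.94 for Cebpg, 0.80 for Cebpa and 0.74 for Id2, with a median of 0.37 over all. Gfi1 and Irf8 had an entry for each of 2 starts, with 13 and 9 CpGs for Gfi1 and with 29 and 8 for Irf8. Cebpg, the gene nearest to no difference in expression, had more CpGs than Cebpa. A link between CpG content and the differences in expression was not tested. Promoters were matched for 6 of the 9 members, and Cebpd, Cebpe and Spi1 were not among them. No methylation was measured on these arrays.

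A motif search of the same 250 bases, on both strands, found few matches. A TATA box (TATAAA) was found in Cebpa and in Irf8, against 12.4% of all promoters. The C/EBP motif TTGCNNCAA (in 1.74% of all promoters), the PU.1 motif GAGGAAGT (2.44%), the interferon-stimulated response element (2.98%) and the Gfi1 motif (2.40%) had 0 matches among the 8 member promoters. A search of this kind says only that these letters are not in these windows.

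The depth behind the values was set by the brightness of the arrays. Of all probes 56.8% were well above background with DAC and 48.5% with PBS, and the 75th percentile of the probes detected on both arrays was 1.32-fold brighter on the DAC array. Values below are the processed intensity of the scanner software, followed by log2 differences, DAC minus PBS, after each array was scaled to that percentile. The error given as SD is that of a log2 difference between repeated spots of the same probe: 0.32 for probes in the dim tier of the array, 0.15 in the middle tier and 0.09 in the bright tier, where tiers hold equal numbers of detected probes. It covers differences between spots within an array and leaves out those between arrays, such as labelling, hybridisation and scan, and those between mice and sorts. The SD came from 52 dim, 77 middle and 64 bright repeated probes, with spots flagged as non-uniform or as outliers left out. Each of the 9 member probes has 1 spot, so no outlier check between spots applied to them. None of the 9 probes was saturated.

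**Figure D1:**
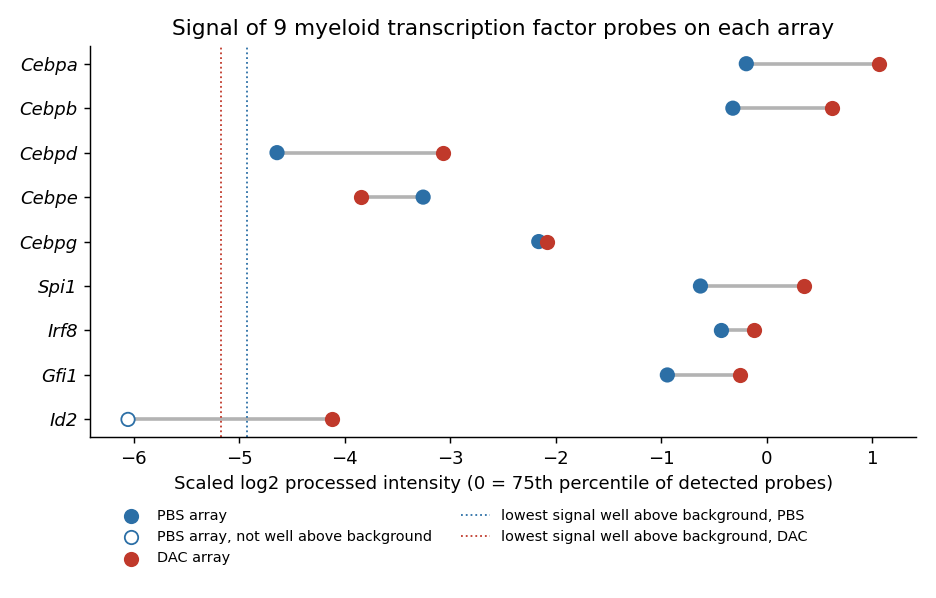
Scaled log2 processed intensity of the 9 probes on the PBS array (blue) and the DAC array (red), where 0 is the 75th percentile of probes detected on both arrays; dotted lines mark each array's detection limit, its lowest well-detected signal. Cebpa runs from −0.19 to 1.06, Cebpe is the only gene with its DAC point on the left, and the PBS point of Id2 (open) lies below the detection line.

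Cebpa, the gene of the factor needed for the step to granulocyte and monocyte progenitors, had a processed intensity of 1699 with DAC and 540 with PBS (NM_007678, mm9 chromosome 7, 35906517 to 35906576). The log2 difference was 1.26 ± 0.09 (SD of repeated spots), many times the spot error. Among the 18211 genes measured on both arrays, 6.70% had a difference at least as high, and among those of the bright tier 1.76% did. It stayed past 2-fold under all 11 alternatives, between 1.05 and 1.30. Alternatives that change the filter on dim probes or the choice of probe could not move it. Cebpa has 1 probe, and this was well above background on both arrays. The same holds for the other members measured on both arrays.

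Cebpb, whose product drives emergency granulopoiesis and macrophage genes, had an intensity of 1246 with DAC and 494 with PBS (NM_009883, mm9 chromosome 2, 167515828 to 167515887). Its log2 difference of 0.94 ± 0.09 was 0.32 below that of Cebpa, and 3.89% of genes in the bright tier lay at least as high. It was below 2-fold in every alternative, between 0.73 and 0.96.

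Cebpd, an acute phase and late granulocytic member of the family, was dim on both arrays, at 96.8 with DAC and 24.7 with PBS (NM_007679, mm9 chromosome 16, 15888459 to 15888518). Before background subtraction its spots read 174 and 96.8, over a local background of 43 and 37.5. The log2 difference was 1.57 ± 0.32. This value rested on the background subtraction: it became 0.45 with normexp correction and 0.49 with none, both under 2-fold. Cebpd overlaps Spidr at one end in the RefSeq annotation of GRCm38.p6, and the Spidr probe, 0.884 kb away in mm9, had a difference of 0.87. Spidr was singled out after its value was seen.

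Cebpe, which acts at the promyelocyte to myelocyte step and switches on secondary granule genes, read lower on the DAC array, at 56.4 against 64.6 on the PBS array (NM_207131, mm9 chromosome 14, 55329200 to 55329259). The log2 difference was −0.59 ± 0.32, under 2 SD of repeated spots. It kept its sign in all 11 alternatives, from −0.99 to −0.43. The unscaled intensities differed by a ratio of 0.874, DAC over PBS, so most of the log2 difference came from the scaling of the brighter array.

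Cebpg, whose short product lacks an activation domain and pairs with the other C/EBP proteins, had an intensity of 192 with DAC and 138 with PBS (NM_009884, mm9 chromosome 7, 35835477 to 35835536). After scaling the arrays were alike, with a log2 difference of 0.08 ± 0.15. Its probe lay 71.04 kb from that of Cebpa, and the differences of these neighbours were 1.18 apart on the log2 scale, a factor of 2.26. Cebpd and Cebpe were 2.16 apart and Cebpa and Cebpe 1.85 apart, and which of these gaps was wider depended on the background correction and scaling.

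**Figure D2:**
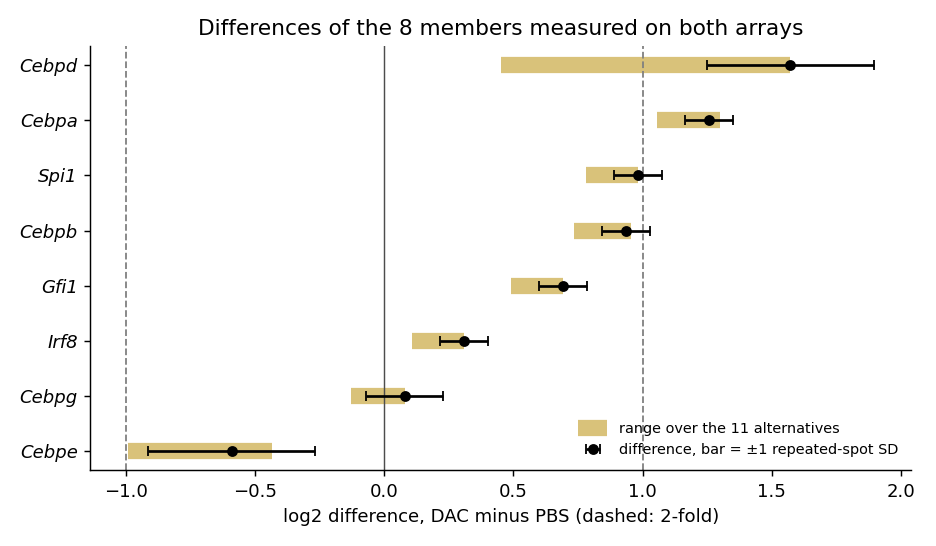
Log2 difference, DAC minus PBS, of the 8 members measured on both arrays (points), with bars of 1 SD of repeated spots either side and a wide band for the range over the 11 processing alternatives; dashed lines mark 2-fold. Cebpa stays right of the 2-fold line over its whole band, Cebpd reaches down to 0.45, and the band of Cebpg crosses 0.

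Spi1, which the array lists under its older name Sfpi1, had an intensity of 1039 with DAC and 399 with PBS (NM_011355). Its log2 difference was 0.98 ± 0.09, within 0.05 of that of Cebpb and just under 2-fold. Only 3.54% of genes in the bright tier lay at least as high, and the alternatives ran from 0.78 to 0.98. The probe maps over 13788 bases of mm9, from 90939665 to 90953452 on chromosome 2, so its 60 bases are split by an intron and read spliced RNA. It is the only probe among the members of which the coordinates show this, and its sequence, 5′ to 3′, is given for that reason.
Spi1 probe: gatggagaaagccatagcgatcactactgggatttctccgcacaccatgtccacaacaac

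Irf8 had an intensity of 747 with DAC and 458 with PBS (NM_008320, mm9 chromosome 8, 123280324 to 123280383). The log2 difference of 0.31 ± 0.09 was the smallest among the bright members, and 20.6% of genes in the bright tier lay at least as high. Spi1 and Irf8, whose proteins bind composite DNA sites together, were 0.67 apart. The alternatives for Irf8 ran from 0.11 to 0.31.

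Gfi1 had an intensity of 683 with DAC and 321 with PBS (NM_010278, mm9 chromosome 5, 108145719 to 108145778). The log2 difference was 0.69 ± 0.09, or 1.61-fold, with 7.43% of genes in the bright tier at least as high. It ran from 0.49 to 0.69 under the alternatives. Of the antagonists in the choice between monocytes and granulocytes, Irf8 and Gfi1, both read higher on the DAC array and neither passed 2-fold.

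Id2 had an intensity of 46.8 with DAC, which was well above background, and 9.29 with PBS, which was not (NM_010496, mm9 chromosome 12, 25778904 to 25778963). Set against the PBS array's detection limit, the lowest signal it called well above background, Id2 was at least 1.75-fold higher on the DAC array. The bound ran from 1.10-fold to 2.01-fold under the alternatives that give one. With the more lenient call of a positive and significant spot, which all 9 members passed on both arrays, Id2 had a difference of 1.94, but that call with normexp correction gave 0.31. Like Id2, 9.43% of all genes or transcripts were detected with DAC alone, 3.61% with a bound past 2-fold. With PBS alone 2.81% were detected, 1.52% with such a bound.

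Past 2-fold on the higher side were 2 of the 8 members measured (Cebpa and Cebpd), with 0 on the lower side and 6 between. With normexp correction or with no background subtraction Cebpd dropped out, which left 1. Of all 18211 genes measured, 10.0% passed 2-fold on the higher side and 6.84% on the lower side, or 16.9% either way. These shares depended on brightness: in the bright tier, which holds Cebpa, Cebpb, Spi1, Irf8 and Gfi1, 3.47% of genes passed on the higher side and 3.56% on the lower. In the middle tier, which holds Cebpg, these shares were 14.3% and 9.27%, and in the dim tier, which holds Cebpd and Cebpe, 13.6% and 8.32%. Above 0 were 7 of the 8 members, and 51.4% of all genes. The median difference of the 8 was 0.81, and that of all genes 0.02. Id2 stayed out of these counts because it was too dim on the PBS array.

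**Figure D3:**
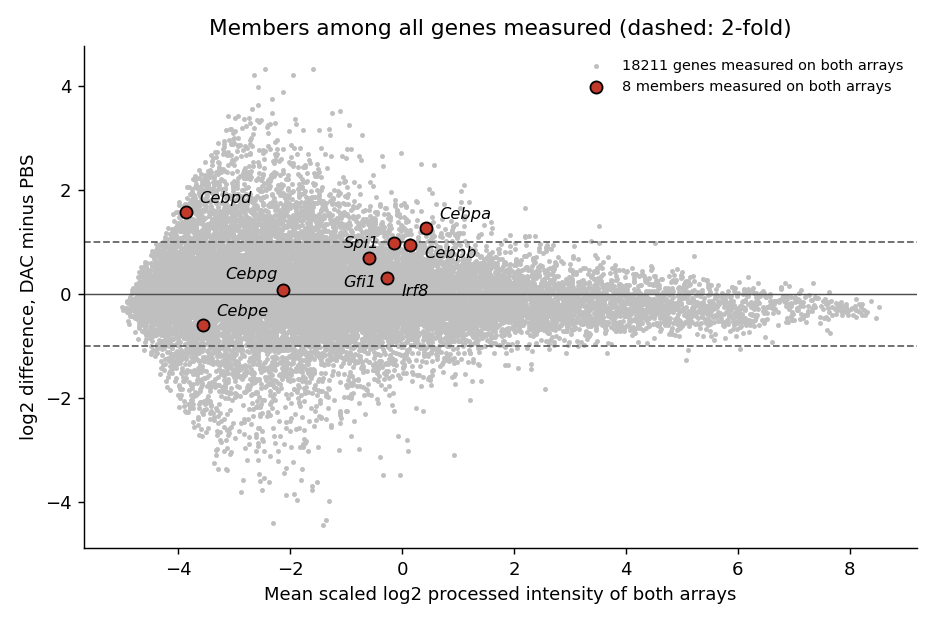
Log2 difference, DAC minus PBS, against the mean scaled log2 intensity of both arrays for the 18211 genes measured (grey) and the 8 members measured (red); dashed lines mark 2-fold. The spread of all genes narrows with brightness, so that Cebpa, at 1.26, lies nearer the edge of the cloud at its brightness than the dim Cebpd, at 1.57.

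The other genes of these pathways were read from 9 lists of partners, relatives and targets. Of 112 genes 93 were measured, 16 of them at least 2-fold higher (17.2%) and 7 lower (7.53%), with a median difference of 0.14. Of all genes measured 10.0% were at least 2-fold higher and 6.84% lower. The higher share was 3.47% in the bright tier and 14.3% in the middle tier. Each list below is small, and its counts should be read beside these shares. Among bZIP partners, relatives and degraders of C/EBP, 5 of 19 measured genes were at least 2-fold higher and 0 lower, with a median of 0.23. Trib1 (2.56), the pseudokinase that marks C/EBPα for degradation, was higher on both of its measured probes and ran from 1.58 to 2.56 under the alternatives. The others were the stem cell factor gene Hlf (2.49, from 2.28 to 2.52), the repressor gene Nfil3 (1.71), the clock factor gene Dbp (1.28) and Batf (1.21), which partners Jun proteins. Batf2 and Maf were detected with DAC alone, by at least 2.40-fold and 2.71-fold. Within 2-fold lay the bright AP-1 genes Fosb (−0.92) and Jund (−0.26), and Atf4 (0.48), whose probes differed in sign. Fosb was at least 2-fold lower in 3 of the 11 alternatives, down to −1.12.

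ETS relatives and partners of PU.1 included 3 of 13 measured genes at least 2-fold higher and 1 lower, with a median of 0.18. Gata1, whose protein and PU.1 inhibit each other in the choice between erythroid and myeloid fate, had an intensity of 297 with DAC and 918 with PBS, a log2 difference of −2.02. Spi1 and Gata1 thus differed in opposite directions between the arrays. Elf4 (2.26), Gata2 (1.17) and Spib (1.07), the lymphoid relative of Spi1, were higher. Spib passed 2-fold in 4 of 11 alternatives, those of the filter and the probe rule, which cannot change a gene with 1 detected probe. It was below 2-fold under every alternative scaling and background correction. Myb (0.32), Cbfb (0.05) and Elf1 (−0.39, probes of opposite sign) lay within 2-fold.

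Among the other interferon regulatory factors 1 of 7 measured genes was at least 2-fold higher and 0 lower, with a median of 0.33. It was Irf5 (1.99), which drives inflammatory cytokine genes. Irf7, the factor that amplifies type I interferon, was detected with DAC alone, by at least 9.33-fold. The brightest others were Irf1 (0.79), Irf9 (−0.10) and Irf3 (−0.33), all within 2-fold.

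Partners of Gfi1 and of Id2 were read separately. Of 8 measured Gfi1 relatives and corepressors 1 was higher, Hdac3 (1.21), and 0 lower, with a median of −0.03. The corepressor genes Ehmt2 (−0.11), Hdac1 (0.09, with its probes down to −0.73) and Kdm1a (−0.13) lay near 0. Of 5 measured Id and E protein genes 1 was higher and 1 lower. The lower one was Id1, with an intensity of 27.5 with DAC and 90.4 with PBS and a difference of −2.11, the opposite direction to Id2. The higher one was the E protein gene Tcf12 (1.08), whose other probe had a difference of −0.35. Tcf12 passed 2-fold in 2 of 11 alternatives, those of the filter, which left its value as it was. Tcf4 (−0.43), Tcf3 (0.06) and Id3 (0.53) lay within 2-fold. Other regulators of myeloid fate went both ways, with 2 of 11 higher, Nr4a1 (1.23) and Egr1 (1.02), and 2 lower, the retinoic acid receptor gene Rara (−1.60) and the monocyte factor gene Klf4 (−1.24). Rxra was detected with DAC alone, by at least 3.88-fold, and Egr2 with PBS alone, by at least 2.44-fold. Stat3 (0.21), Myc (0.19) and Zeb2 (0.41, with its probes down to −3.24) lay within 2-fold.

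**Figure D4:**
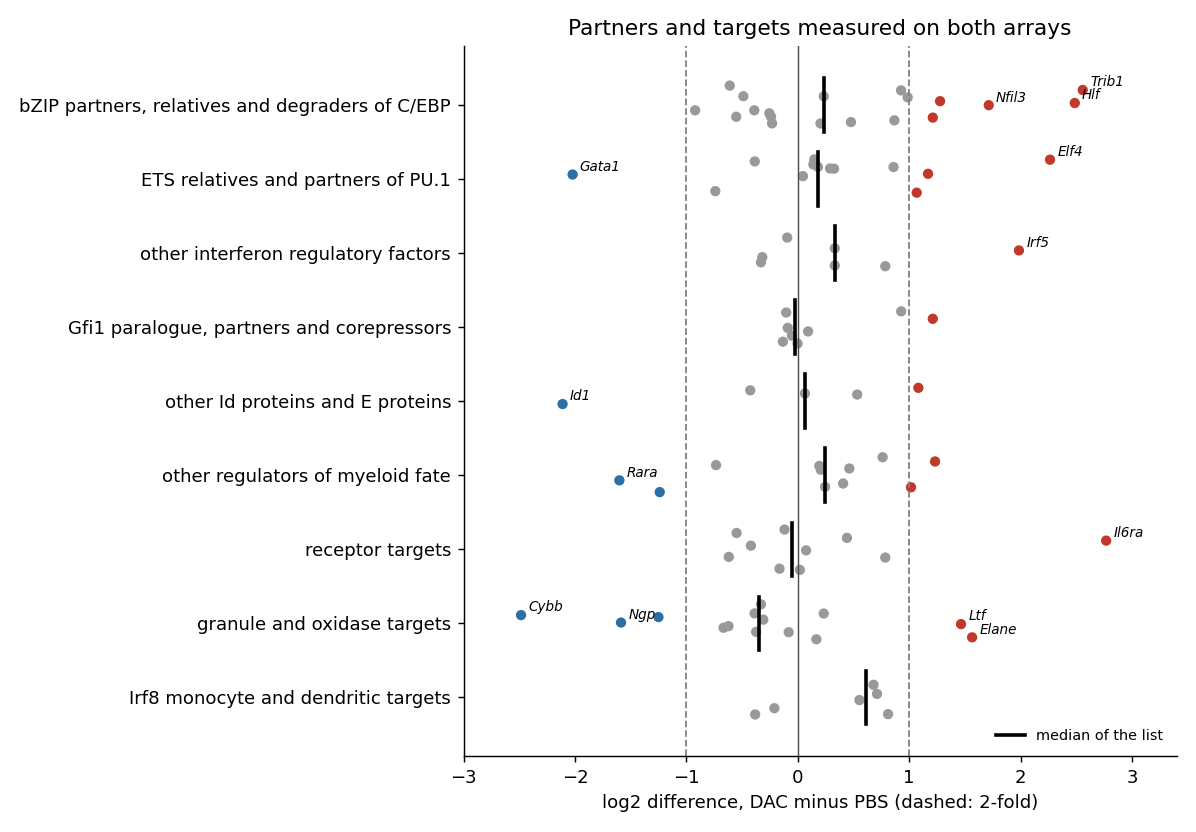
Log2 difference, DAC minus PBS, of the measured genes in each of 9 lists of partners, relatives and targets, with 1 point per gene, red at 2-fold higher or more, blue at 2-fold lower or more, and a black line for the median. The medians lie between −0.35 for granule and oxidase targets and 0.62 for Irf8 targets, and the points past 2-fold are on both sides.

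Known targets of these factors lay on both sides of 0. Of 10 measured receptor genes 1 was at least 2-fold higher, the interleukin-6 receptor gene Il6ra (2.77), and 0 lower, with a median of −0.05. The colony-stimulating factor receptor genes Csf3r (−0.16) and Csf1r (0.02), classical targets of C/EBPα and PU.1, lay near 0, though the 3 probes of Csf1r ran from 0.02 to 2.27. Itgam had a difference of −0.55, with its probes up to 1.58. Of 14 measured granule and oxidase genes 2 were higher, the neutrophil elastase gene Elane (1.56) and Ltf (1.47), and 3 lower, the oxidase subunit gene Cybb (−2.49), Ngp (−1.59) and Lcn2 (−1.25). Their median was −0.35. The bright primary granule genes Mpo (0.17), Ctsg (−0.37) and Prtn3 (−0.08) lay within 2-fold. Ltf, Ngp and Lcn2 all encode secondary granule proteins, which C/EBPε controls, and they differed in direction. Of 6 measured Irf8 targets 0 passed 2-fold on either side, with a median of 0.62 and Cst3 (−0.21), Ctss (0.55) and Ciita (−0.38) among them. Some of the higher calls among these lists depended on the settings: besides Spib and Tcf12, Batf passed 2-fold in 7 of the 11 alternatives, Egr1 in 8, and Dbp, Gata2, Hdac3 and Ltf in 9 each. These counts include the filter and probe rule settings. Those settings could not change Batf, Egr1, Gata2, Hdac3 or Ltf, which have 1 probe each.

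The surroundings of the members were read from 30 probes of other genes within 50 kb, of which 18 were measured, 2 at least 2-fold higher and 0 lower. Of all genes measured 10.0% were at least 2-fold higher and 6.84% lower, so 2 of 18 is near the share of all genes. Next to Cebpb, Tmem189 had a difference of 1.48, and its other probe was detected with DAC alone, by at least 2.59-fold. Next to Cebpe, the amino acid transporter gene Slc7a8 had a difference of 2.59 while Cebpe itself was at −0.59. Near Spi1, Slc39a13 was detected with PBS alone, by at least 2.37-fold. The sole probe within 50 kb of Cebpa was not well above background on either array.

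The markers of the sorted gate were present on both arrays, with differences of 0.12 for Kit and 0.07 for Ly6a, which encodes Sca-1. Committed cell types, myeloid and other, were read by marker lists. Of all genes measured 10.0% were at least 2-fold higher and 6.84% lower. Of 12 neutrophil markers 9 were measured, 1 at least 2-fold higher and 2 lower, with a summed scaled signal of 56.4 with DAC and 81.4 with PBS. Itgam alone gave 49.7 and 72.8 of these sums, with probes that differed in sign, and without it they were 6.70 and 8.56. Retnlg was detected with DAC alone, by at least 2.06-fold, and Mmp8 and Mmp9 were not well above background on either array. Of 11 monocyte and macrophage markers on the array 4 were measured, 0 higher and 1 lower, with summed signals of 6.87 and 6.94, or 1.65 and 1.78 without Csf1r. Another 4 were detected with DAC alone, with Adgre1 the only one past 2-fold (at least 4.97-fold). Of 7 dendritic cell markers 3 were measured, all within 2-fold, with summed signals of 5.52 and 7.14, or 0.64 and 0.65 without Siglech, and Clec9a and Xcr1 were not well above background. Of 8 mast cell, basophil and eosinophil markers 7 were measured, 2 higher and 4 lower, with summed signals of 2.18 and 5.35. Fcer1a was detected with PBS alone, by at least 2.85-fold. Erythroid markers summed to 4.67 and 5.01, or 2.04 and 2.86 without Ermap. All 5 measured lay within 2-fold, and 1 had a difference above 0, against 51.4% of all genes. Epor was detected with DAC alone, by at least 2.83-fold, and Alas2 with PBS alone, by at least 1.77-fold. B cell markers summed to 13.6 and 10.3, or 6.16 and 3.88 without Vpreb1. Of 6 B cell markers measured 1 was at least 2-fold higher and 1 lower. T and NK cell markers summed to 8.44 and 8.70, of which Nkg7 gave 7.34 and 7.55. Of 4 measured 0 were at least 2-fold higher and 1 lower, Gzmb (−1.47). Cd3d was detected with PBS alone, by at least 4.51-fold, and Klrb1c with DAC alone, by at least 1.05-fold. The part of other cell types in the members' differences was not tested. In sorted populations of this kind a change in the share of cells that express a gene and a change in its RNA per cell cannot be told apart.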

How the data were processed

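Total RNA of sorted LSK cells was labelled with Cy3 and hybridised to Agilent arrays, 1 per group, per the labels' protocols. The arrays were read with Agilent Feature Extraction 10.7.3.1 (protocol GE1_107_Sep09, build mm9), per the file headers. The deposited intensity is the background-subtracted, detrended processed signal of each spot, not normalized between arrays; calls of the scanner software (other columns) and mean and background intensity were deposited too. The deposited series matrix holds log2 values with a median of 0 in each array's column and a probe baseline that is not stated. Only differences between its columns were therefore used. These differences equal those of the processed intensity up to a constant of −0.60.

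From these, log2 processed intensity was scaled to each array's 75th percentile taken over 25404 probes, those that both arrays called well above background. Spots marked by the scanner software as non-uniform or, for repeated probes, as population outliers were left out, and a probe counted as detected if 50% of its spots were well above background. Where a gene had several probes the brightest stood for it. Genes were named through transcript accessions (26761 probes), current symbols (3819) or synonyms (639) of a RefSeq table of GRCm38.p6, and 24461 probes kept the file's name. The sources used here do not say which probes lie in untranslated regions. Normexp correction used limma 3.58.1 in R 4.3.3, with an offset of 50, and loess used statsmodels 0.14.6. The counting of genes past 2-fold was tested on simulated data. The rule for named genes took all members, list genes and neighbouring probes within 50 kb past 2-fold or with a bound past it, and the 3 brightest others of a list. One gene that this rule names is not reported here. The members and lists were chosen with earlier results of these data known.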

Additional observations from a re-analysis of the deposited data

How the results depend on the processing

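The 11 alternatives changed scaling, background correction, the filter on dim probes or the probe that stands for a gene. The filters and probe rules could not change the difference of a member measured on both arrays, because each has 1 probe. The series matrix values nearly repeated the scaling over all probes, with Cebpa at 1.06 and 1.05. The count of members at least 2-fold higher was 2 of 8 at first and stayed at 2 under the 5 other scalings. Both probe rules had to leave it at 2, because no member has more than 1 probe. The count became 3 of 9 when positive and significant spots or all spots were kept, with Id2 added. It fell to 1 with normexp correction and to 1 with no background subtraction, where Cebpd dropped out. The share of all genes at least 2-fold higher moved too, to 3.96% with normexp correction, 3.94% with no subtraction, 7.30% with scaling over all probes and 15.4% with no filter. The count of members at least 2-fold lower was 0 in all of them. The median of all genes shifted to −0.18 with scaling over all probes and with the series matrix values, to −0.14 with median centring and to −0.09 with quantile normalization. No alternative turned the sign of a member past 2-fold. The sign of Cebpg turned under all 5 other scalings. The added setting for Id2, the lenient call with normexp correction, was chosen after seeing the data. No paired analysis was possible because each group holds 1 array, and for the same reason no replicate could be left out. Dim probes limit Cebpd, Cebpe and Id2 most.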
